A study of Mus musculus with 6 samples.

Results

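Pdgfra and 8 other genes for growth factor receptors (Fgfr1, Fgfr2, Fgfr3, Igf1r, Erbb3, Erbb4, Ntrk2 and Egfr) were followed through the enhancer-gene tables of cultured mouse oligodendrocyte precursor cells (OPCs). The genes were taken by name, and every element-gene pair whose target gene matched by Ensembl identifier was kept. This gave 30 of 66637 listed pairs in untreated cells (Ctr-OPCs) and 26 of 71478 in cells treated with interferon gamma (IFN-γ-OPCs), for 9 of 32049 target genes listed in either condition. All 9 genes were listed in Ctr-OPCs but 8 in IFN-γ-OPCs, where Fgfr1 was absent.

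The libraries were H3K27ac-HiChIP, which captures contacts between pieces of chromatin that carry acetylated lysine 27 of histone H3, 3 from Ctr-OPCs and 3 from IFN-γ-OPCs. Both groups came from mice labelled C57BL/6j and Sox10-Cre/RCE, in which Cre driven by Sox10 switches on EGFP in the oligodendrocyte lineage, at postnatal day 4 to 6, both sexes, with several brains pooled. Both were grown with bFGF at 20 ng/mL and PDGF-AA at 20 ng/mL per the labels (the study's methods give 40 ng/mL for bFGF). The treated group also received IFN-γ at 100 ng/mL, for 48 h per the study's methods. For both groups the labels give 24 h after passage. Cells had been isolated by EGFP or with beads against CD140a, the protein encoded by Pdgfra. PDGF-AA is the ligand of PDGFRA and bFGF a ligand of the FGF receptors, so both conditions carry ligand for these receptors. The deposited tables hold 1 pooled result per condition, so no value below has a replicate error or a test, and the read depth behind each value is unknown.

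Receptor tyrosine kinases sit in the cell membrane, bind secreted growth factors and pass the signal to the RAS-MAPK and PI3K-AKT pathways. In OPCs, PDGFRA is the defining receptor of the precursor stage and carries the proliferative and survival signal of PDGF-AA. FGF receptors keep precursors dividing and act in myelin growth, IGF1R serves survival and differentiation, the ERBB receptors read neuregulins and EGF-family ligands, and NTRK2 (TrkB) is the receptor for BDNF.

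Each listed pair has an activity-by-contact (ABC) score, which is the activity of an element (from chromatin accessibility, CA, and H3K27ac) times its HiChIP contact with the transcription start site (TSS), as a share of the sum of that product over all elements near the gene. That sum is called the gene total here, in model units. A connection is a pair with a score above 0.05. Pairs are listed from a score of 0.02, and a gene also needs a promoter activity quantile of at least 0.4. How the 2 tables were scaled to each other is not given in the sources used here. Positions are in mm10. Where a pair of values is given with no label, the first is that of Ctr-OPCs. Of the markers used to check the cell label, 7 of 7 genes of OPCs and the oligodendrocyte lineage were listed in both conditions, with 16 connections without and 14 with IFN-γ. Microglia markers, 6 in the list, had 3 genes listed and 2 connections in Ctr-OPCs and 5 genes and 0 connections in IFN-γ-OPCs, with C1qa at no listed pair in either. Listed genes and connections were 5 and 6, then 5 and 1, for mature oligodendrocytes (6 genes), 4 and 4, then 4 and 6, for astrocytes (6), 5 and 0, then 5 and 1, for neurons (5), and 2 and 0, then 4 and 1, for endothelium and pericytes (5). The part of other cell types in the values below was not tested.

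Counted over the 9 receptor genes, 8 connections were found without IFN-γ and 9 with it. Igf1r went from 1 to 3 and Egfr from 0 to 1, whereas Fgfr1 went from 1 to 0 and Erbb3 from 2 to 1. Pdgfra kept 2, Erbb4 and Ntrk2 kept 1, and Fgfr2 and Fgfr3 had 0 in both. Over all target genes, 14.9% had more connections in IFN-γ-OPCs, 13.0% fewer and 72.1% as many, so a split of 2, 2 and 5 among 9 genes is read against a background in which change in either direction was common. Among all listed pairs of the receptor genes, 19 of 30 in Ctr-OPCs had an overlapping pair of the same gene in the other table, beside 45.8% of all listed pairs, and 19 of 26 in IFN-γ-OPCs, beside 42.8%. Of the 8 connections in Ctr-OPCs, 6 overlapped a connection of the same gene in IFN-γ-OPCs, beside 49.5% of all connections, and 6 of 9 in the other direction, beside 46.3%. With a reciprocal overlap of 50% these were 3 of 8, beside 45.9%, and 3 of 9, beside 43.0%, so the receptor share was above that of all connections under the former rule and below it under the latter. Element borders were drawn separately in each condition, and Igf1r and Erbb3 changed their counts partly where the same stretch was cut differently. When overlapping elements were merged into regions, an alternative chosen after seeing the data, the counts were 7 and 8, Igf1r went from 1 to 2 and Erbb3 had 1 in both. When an equal number of top connections was taken per condition, the counts were 8 and 7, with Pdgfra going from 2 to 1 and Ntrk2 from 1 to 0.

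**Figure D1:**
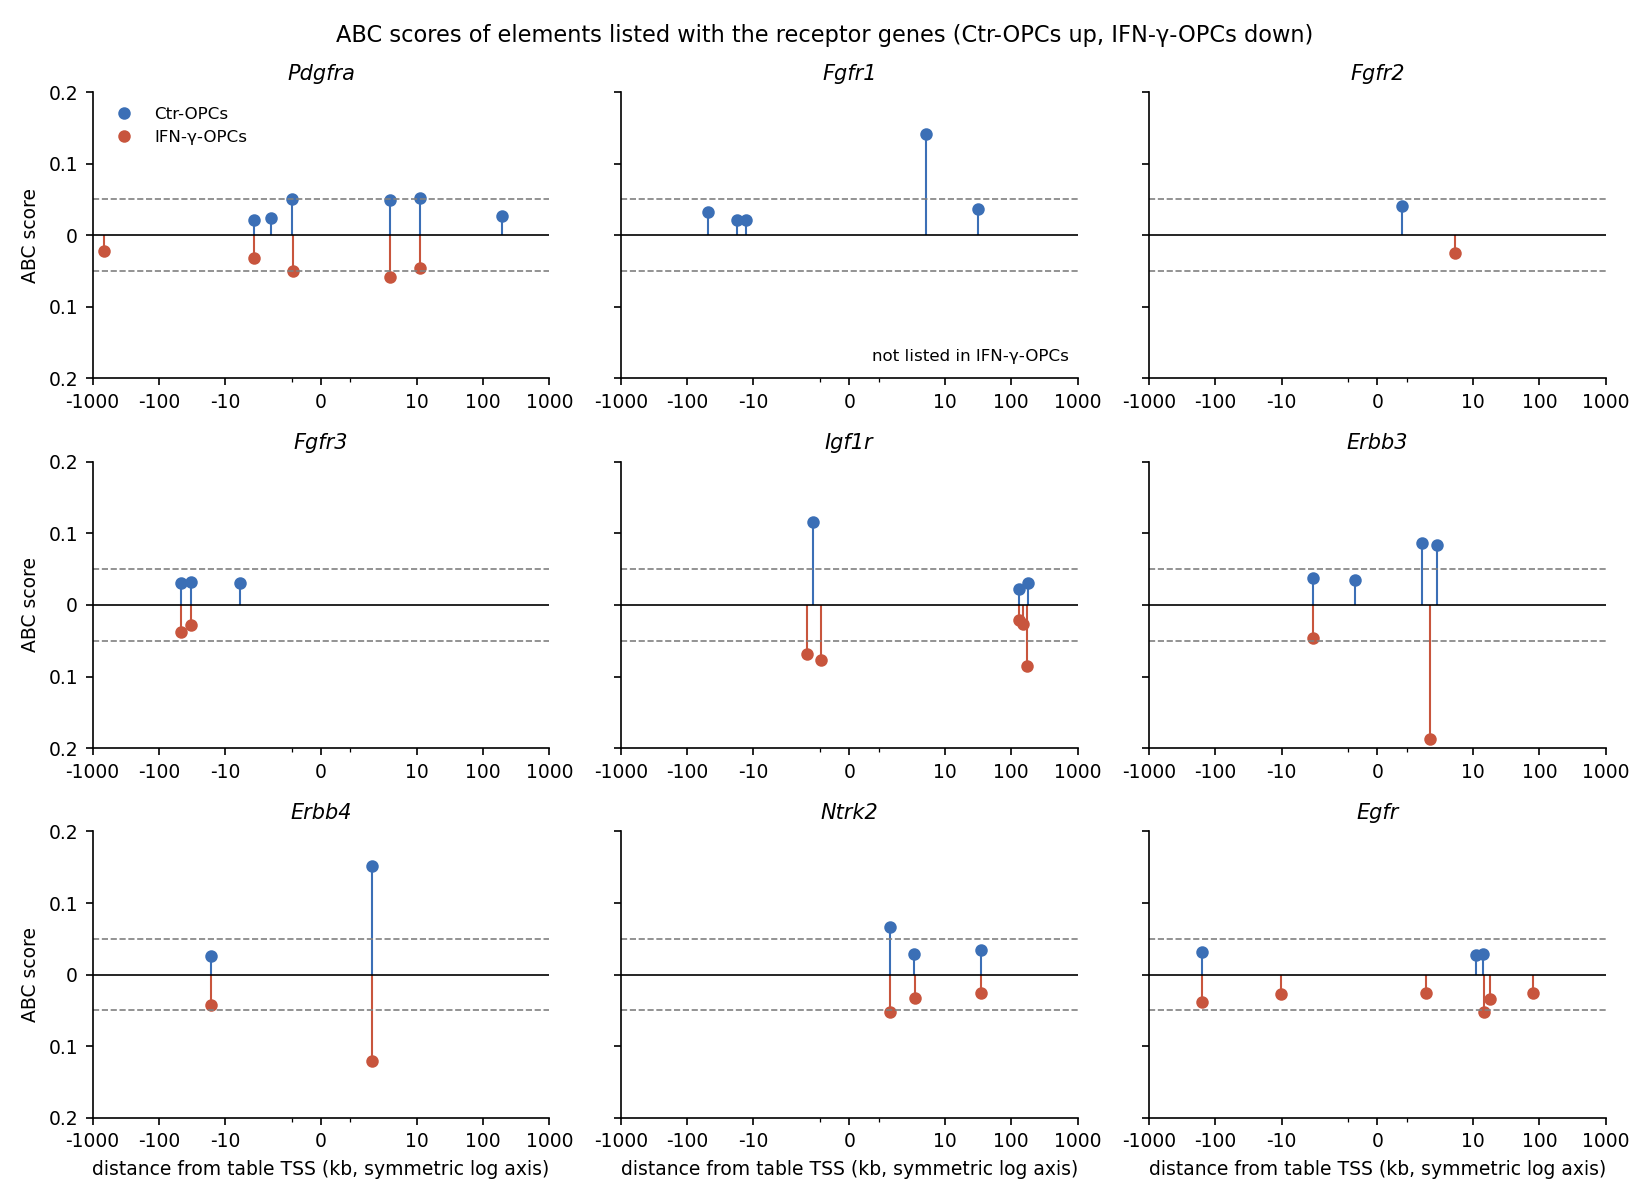
ABC score of every element listed with each receptor gene against its distance from the TSS used in the tables, in kb on a symmetric log axis, negative upstream. Ctr-OPCs are drawn upward in blue and IFN-γ-OPCs downward in red, with the 0.05 cut-off dashed; Pdgfra has 3 elements close to the cut-off in both conditions and others between 0.0210 and 0.0312, and the Erbb4 score is the highest of Ctr-OPCs at 0.151.

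Pdgfra had 3 elements with scores close to the cut-off in both conditions, the furthest 11.2 kb from its TSS, and its other elements scored lower. The latter scored 0.0210, 0.0238 and 0.0264 in Ctr-OPCs against 0.0217 and 0.0312 in IFN-γ-OPCs, and 3 of these 5 lay at most 3.67 kb upstream of the TSS. The element 0.978 kb upstream of the TSS (chr5:75151065-75151564, intergenic) scored 0.0504 in Ctr-OPCs, and its counterpart in IFN-γ-OPCs scored 0.0503. Its activity was 1.73 in both conditions. The element 4.02 kb inside the gene, which overlaps an annotated untranslated exon, scored 0.0498 in Ctr-OPCs against 0.0585 in IFN-γ-OPCs, with an activity of 1.71 and 2.01. It therefore counts as a connection in IFN-γ-OPCs alone, although it missed the cut-off in Ctr-OPCs by a small margin. The element 11.2 kb inside the gene (chr5:75163278-75163777), which overlaps a coding exon, moved the other way, from 0.0517 to 0.0461. Its activity was 4.32 and 3.41, the strongest of the elements within 20 kb of the Pdgfra TSS in both conditions. The count of 2 connections in both conditions thus covers the exchange of an intragenic element for another.

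The central 240 bases that these 2 Pdgfra elements share between conditions are shown because these were its connections in Ctr-OPCs, from RefSeq GRCm38.p6, plus strand, with capitals for a match to a motif reported here.
Pdgfra upstream, chr5:75151211-75151450: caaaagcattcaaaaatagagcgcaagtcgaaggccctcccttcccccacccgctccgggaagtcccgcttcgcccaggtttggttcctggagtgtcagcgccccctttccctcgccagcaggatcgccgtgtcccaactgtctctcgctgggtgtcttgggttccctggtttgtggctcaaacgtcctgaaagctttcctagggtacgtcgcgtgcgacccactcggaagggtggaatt
Pdgfra intragenic, chr5:75163416-75163655: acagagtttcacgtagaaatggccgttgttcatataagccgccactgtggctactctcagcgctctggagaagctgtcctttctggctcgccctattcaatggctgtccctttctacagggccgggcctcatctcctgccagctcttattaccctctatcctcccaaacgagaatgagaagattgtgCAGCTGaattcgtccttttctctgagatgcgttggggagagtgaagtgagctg
The upstream stretch holds no match to the 4 motifs reported here, and the intragenic stretch holds the E-box letters CAGCTG. The searched letters reported here were a GAAA run, any 2 bases and another GAAA run (ISRE), TGANTCA (AP-1), ACAAAG (SOX) and CAGCTG (E-box), on both strands.

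Further from Pdgfra the conditions listed different elements. In Ctr-OPCs an intergenic element 195 kb downstream of the TSS had an activity of 7.39 and a score of 0.0264, and was the most active element listed with any of the 9 genes. The overlapping element had an activity of 3.84 with IFN-γ and was listed with other genes and not with Pdgfra, but it was 500 bases long against 982. This element was also a connection of Kit in Ctr-OPCs, a neighbouring receptor gene of the same family, which had 1 connection in Ctr-OPCs but 0 in IFN-γ-OPCs; Kit was singled out after its values were seen. In IFN-γ-OPCs an element 669 kb upstream, in an intron of Scfd2, was listed with Pdgfra at 0.0217, with a contact 3.09 times the value that the distance alone predicts. The 90th percentile of that ratio over all listed pairs at 100 kb to 1 Mb was 4.34, so this pair was within the usual range for its distance. The gene total of Pdgfra was 1.30 in Ctr-OPCs against 1.22 in IFN-γ-OPCs, above 70.3% and 72.0% of protein-coding genes. The target gene with the most similar set of elements was Gm42802, an antisense gene at the locus, which shared 11 of 11 elements over both tables, followed by Gm42803 with 9 in common. Both were connected to the upstream element in IFN-γ-OPCs.

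The FGF receptors gave values that depend on which TSS the tables use. Fgfr1 had a connection in Ctr-OPCs, with a score of 0.141, to an element 5.26 kb downstream of the table's TSS (chr8:25518611-25519218). Of 19 annotated Fgfr1 transcripts, 1 starts within 1 kb of the table's TSS, whereas 5 coding transcripts start between 25518759 and 25518795, inside that element. This connection thus joins 2 annotated start regions of the same gene. Fgfr1 was absent from the table of IFN-γ-OPCs, as were 21.2% of the target genes listed in Ctr-OPCs. Which of the listing limits it missed cannot be read from the tables, and its promoter quantile in Ctr-OPCs was 0.546.

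Of the 5 Fgfr1 elements, 3 overlapped an element still listed in IFN-γ-OPCs. The element at the coding starts had an activity of 2.25 in Ctr-OPCs against 2.37 in IFN-γ-OPCs. The element 47.9 kb upstream of the Fgfr1 TSS had 2.09 and 2.71. The element 31.0 kb inside Fgfr1 had 3.14 in Ctr-OPCs and was cut into 2 elements of 1.51 and 2.42 in IFN-γ-OPCs. All of these were listed in IFN-γ-OPCs with other genes, and the remaining 2 of the 5 Fgfr1 elements were not listed.

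Fgfr2, which encodes another FGF receptor, was placed in both tables at a TSS 2857 kb from its RefSeq TSS. Among 14061 target genes with a RefSeq TSS, this was the 1 gene with a gap over 1 Mb. The table's position lies at Ctbp2, a gene for a transcriptional corepressor, and corresponds to 1 of 27 annotated Fgfr2 transcripts. The elements listed with Fgfr2, with scores of 0.0403 in Ctr-OPCs against 0.0246 in IFN-γ-OPCs, lie inside Ctbp2, and both were also listed with Ctbp2 and B930086L07Rik. The element next to the RefSeq TSS had an activity of 3.05 in Ctr-OPCs against 3.15 in IFN-γ-OPCs, and was listed with other genes in both. The Fgfr2 total of 1.19 and 1.29 was therefore computed at the start region of Ctbp2. Fgfr3 had 3 listed elements in Ctr-OPCs but 2 in IFN-γ-OPCs, with scores from 0.0275 to 0.0372 and none above the cut-off. The 2 kept elements lie 47.0 kb upstream, in an intron of Tacc3, and 32.3 kb upstream. For the former the activity was 3.75 and 2.79, the contact 0.0128 and 0.0184, and the score 0.0306 and 0.0372. Fgfr3 had the highest gene total of the receptor genes without IFN-γ, 1.57, against 1.38 with it.

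Igf1r, the receptor for insulin-like growth factors, went from 1 to 3 connections, a change that depends on the cut-off and on the unit counted. At a cut-off of 0.1 it went from 1 to 0, by the power-law score from 1 to 2, and over all listed pairs from 3 to 5, where Egfr went from 3 to 6. In Ctr-OPCs its connection was an 895-base element 1.27 kb upstream of the TSS, with a score of 0.116. In IFN-γ-OPCs the same stretch was listed as 2 elements of 500 bases with scores of 0.0689 and 0.0774, which sum to 0.146. The activity of the stretch was 4.03 in Ctr-OPCs against 5.10 summed over both pieces in IFN-γ-OPCs, 1.26-fold higher. Part of the gain in count is therefore the cut of 1 element into 2. The third connection was an element 176 kb inside the gene, in an intron, whose score was 0.0312 in Ctr-OPCs against 0.0856 in IFN-γ-OPCs. Its activity was 2.93 and 4.15, and its contact with the Igf1r TSS was 0.00996 and 0.0182. The contact was 1.79 times the value predicted from distance in Ctr-OPCs and 3.27 times in IFN-γ-OPCs. The 90th percentile of that value over all listed pairs at 100 kb to 1 Mb was 3.70 and 4.34. Both Igf1r values thus lay within the usual range for that distance. Of all 29858 matched pairs, 4.73% had a ratio of contact between conditions as high or higher. The element was 500 bases long in Ctr-OPCs but 1765 in IFN-γ-OPCs, so the higher activity belongs to a longer stretch, whereas the contact is read from bins of 5 kb.

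The stretches of both Igf1r regions that the conditions share are shown for this reason, again with capitals for motif matches.
Igf1r upstream, chr7:67951196-67951435: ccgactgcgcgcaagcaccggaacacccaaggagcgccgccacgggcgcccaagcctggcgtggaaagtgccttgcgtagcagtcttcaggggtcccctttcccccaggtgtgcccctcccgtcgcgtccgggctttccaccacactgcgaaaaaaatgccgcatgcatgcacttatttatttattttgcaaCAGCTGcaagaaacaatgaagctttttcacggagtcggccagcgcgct
Igf1r intron, chr7:68129132-68129371: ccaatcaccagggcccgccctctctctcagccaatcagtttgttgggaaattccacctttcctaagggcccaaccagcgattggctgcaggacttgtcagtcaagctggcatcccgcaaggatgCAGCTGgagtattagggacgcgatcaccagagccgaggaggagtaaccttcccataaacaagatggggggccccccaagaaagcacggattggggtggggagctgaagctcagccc
Both hold an E-box and neither holds ISRE letters. Despite the change in connections, the Igf1r total was 0.935 in Ctr-OPCs against 0.884 in IFN-γ-OPCs. The share of that total held by listed elements was 17.0% and 27.9%. Among the receptor genes listed in both conditions, this share was higher with IFN-γ only for Egfr and Igf1r. The genes with the most similar elements were the lincRNAs Gm34350 and 4833412C05Rik, with 6 and 5 elements in common. 4833412C05Rik was connected to the intronic element and to the upstream element nearest the Igf1r TSS in IFN-γ-OPCs.

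Erbb3, which encodes the neuregulin co-receptor that signals through its partners, was connected in both conditions to a stretch of intron near its TSS. In Ctr-OPCs this was listed as 2 elements, 1.67 and 2.86 kb inside the gene, with scores of 0.0860 and 0.0834, which sum to 0.169. In IFN-γ-OPCs it was 1 element of 1882 bases with a score of 0.188, the highest of all listed pairs of the receptor genes. The summed activity was 3.04 and 3.60, 1.18-fold higher, and the contact was 0.0750 and 0.0759. The 2 elements of Ctr-OPCs were 793 and 500 bases long, with unlisted bases between them, so this fold compares stretches of unlike length. The drop from 2 connections to 1 is thus a merger of 2 elements. The merged element was connected to Mir6917, Ftl1-ps2, Gm47540 and Pa2g4 as well in IFN-γ-OPCs, and was listed with 15 other genes, against 3 for each of the elements in Ctr-OPCs. Gm47540, a lincRNA, shared 6 of 6 elements with Erbb3. The upstream element 3.40 kb from the Erbb3 TSS scored 0.0380 and 0.0461, with an activity of 1.14 and 1.42. The Erbb3 total was 1.35 and 1.45.

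Erbb4, a neuregulin receptor with its own kinase activity, had the highest score of Ctr-OPCs, 0.151, at an element 2.15 kb inside the gene, in an intron that also belongs to the sense-intronic gene Gm16076. In IFN-γ-OPCs it scored 0.120. Its activity was 2.87 and 2.16, and its contact 0.0265 and 0.0286, so the lower score goes with lower activity. The element 16.3 kb upstream scored 0.0261 and 0.0428. Its activity was 2.27 over 901 bases in Ctr-OPCs against 1.82 over 500 bases in IFN-γ-OPCs, and its contact was 0.00580 and 0.0120, 2.07-fold higher. Of all matched pairs, 2.79% had a contact ratio as high or higher. The Erbb4 total was 0.504 and 0.512, the lowest of the 8 listed receptor genes in IFN-γ-OPCs. The stretch of the intronic element that both conditions share is shown as the single Erbb4 connection.
Erbb4 intron, chr1:69105803-69106042: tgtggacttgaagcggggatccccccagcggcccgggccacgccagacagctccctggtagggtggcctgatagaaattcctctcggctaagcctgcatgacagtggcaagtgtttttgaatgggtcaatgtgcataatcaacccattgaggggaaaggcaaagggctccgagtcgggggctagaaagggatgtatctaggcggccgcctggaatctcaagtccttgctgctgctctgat
It holds no match to these motifs. Gm16076 shared 4 of 4 elements with Erbb4 and was connected to the same element in both conditions, and the pseudogene Gm15670 in Ctr-OPCs.

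Ntrk2 kept its 3 elements. The element 1.48 kb inside the gene, at an untranslated exon, scored 0.0671 in Ctr-OPCs against 0.0515 in IFN-γ-OPCs and was its connection in both. Its activity was 1.82 and 1.85, whereas its contact was 0.0363 and 0.0247. The elements 3.44 and 34.6 kb inside the gene scored 0.0285 and 0.0340 in Ctr-OPCs and 0.0330 and 0.0252 in IFN-γ-OPCs. The Ntrk2 total was 0.986 and 0.887. The gene most like it in elements was C630044B11Rik, with 6 in common.

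Egfr, the receptor for EGF and TGF-alpha, had the lowest gene total of the 9 receptor genes in Ctr-OPCs and the highest ratio of IFN-γ-OPCs over Ctr-OPCs among the 8 with a total in both. The total was 0.417 in Ctr-OPCs against 0.560 in IFN-γ-OPCs, 1.34-fold higher, or 0.43 on the log2 scale. Of 20321 genes with a total in both conditions, 1.94% had a ratio as high or higher. Listed elements rose from 3 to 6, and their share of the total from 8.77% to 20.3%. The connection in IFN-γ-OPCs was an intronic element 14.3 kb inside the gene (chr11:16766288-16766787), with a score of 0.0526, against 0.0294 for the overlapping element in Ctr-OPCs. Its activity was 1.05 in Ctr-OPCs against 1.87 in IFN-γ-OPCs, 1.78-fold higher, although the element was shorter in IFN-γ-OPCs, 500 bases against 805. Its contact was 0.0117 and 0.0158. An element 11.2 kb inside the gene, with an activity of 0.479, was listed in Ctr-OPCs alone. With Egfr, 4 elements were listed in IFN-γ-OPCs alone. Those 10.4 kb upstream and 1.94 kb inside the gene, with activities of 0.853 and 0.392, overlapped no listed element of Ctr-OPCs. Those 17.7 and 79.9 kb inside the gene were listed with other genes in Ctr-OPCs, and their activities there were 0.606 and 1.40, against 1.19 and 1.65 in IFN-γ-OPCs. The element 161 kb upstream had a near-equal activity, 2.74 and 2.90, and a contact of 0.00478 and 0.00735. The antisense gene Egfros had 5 elements in common with Egfr.

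Interferon-stimulated response element letters, bound by ISGF3 and IRF factors, were found at 3 places in Egfr elements and at 1 in an Erbb3 element, and in no element of the other 7 genes. The 3 intronic Egfr stretches are shown because they hold these letters, with the matches in capitals; the first is the stretch shared by both conditions and the others are 120 bases around the match, which lies on the minus strand at 79.9 kb.
Egfr 14.3 kb, chr11:16766418-16766657: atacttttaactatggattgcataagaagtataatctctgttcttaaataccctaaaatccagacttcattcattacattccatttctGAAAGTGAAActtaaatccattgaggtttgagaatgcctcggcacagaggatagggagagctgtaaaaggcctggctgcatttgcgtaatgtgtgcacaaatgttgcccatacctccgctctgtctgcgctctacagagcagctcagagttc
Egfr 17.7 kb, chr11:16769905-16770024: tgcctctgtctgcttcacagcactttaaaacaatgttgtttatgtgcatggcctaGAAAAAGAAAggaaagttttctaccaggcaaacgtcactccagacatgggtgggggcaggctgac
Egfr 79.9 kb, chr11:16832074-16832193: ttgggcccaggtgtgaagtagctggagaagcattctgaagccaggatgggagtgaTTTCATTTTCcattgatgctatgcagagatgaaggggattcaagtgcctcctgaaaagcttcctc
Among elements of 500 bases, 3 of 22 receptor elements in IFN-γ-OPCs (13.6%) held the ISRE letters, beside 9.57% of all 22029 such elements, and 0 of 20 in Ctr-OPCs, beside 5.86% of 17106. The 0 is set by length and listing: the same Egfr letters at 14.3 kb lie in an 805-base element of Ctr-OPCs, and those at 17.7 and 79.9 kb in Ctr-OPC elements listed with other genes. The E-box was in 12 of 20 and 11 of 22, beside 39.9% and 37.7%, the SOX letters in 8 of 20 and 11 of 22, beside 41.8% and 43.4%, and the AP-1 letters in 2 of 20 and 1 of 22, beside 14.6% and 17.0%. The median GC content of the receptor elements was 56.1% and 51.8%, beside 50.2% and 49.4%. A match says only that the letters are present.

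Across the 18 pairs of the receptor genes that could be matched between conditions, the median log2 ratio of element activity was -0.029, beside -0.091 over all matched elements. Activity was higher by 1.5-fold or more in 3 and lower in 1, beside 9.26% and 13.6% of all matched elements. The 3 were the Erbb3 intronic, the Egfr 14.3 kb and the Pdgfra 3.67 kb upstream elements. The Erbb3 element is matched to 1 of its 2 pieces in Ctr-OPCs, and against the sum of both pieces the 1.18-fold given above does not pass. The 1 was the Igf1r upstream element, which is matched to 1 of its 2 pieces in IFN-γ-OPCs. Summed over both pieces, its activity was higher with IFN-γ, 4.03 and 5.10. All 4 differ in length between conditions, and none of the 12 pairs of like length passed this fold, beside 5% higher and 4.14% lower of all 10128 matched elements of like length. The median log2 ratio of contact was 0.08, beside 0.05 over all matched pairs. Contact was higher by 1.5-fold or more in 3 and lower in 0, beside 12% and 8.33%. The 3 were the far Igf1r, the upstream Erbb4 and the upstream Egfr pairs.

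**Figure D2:**
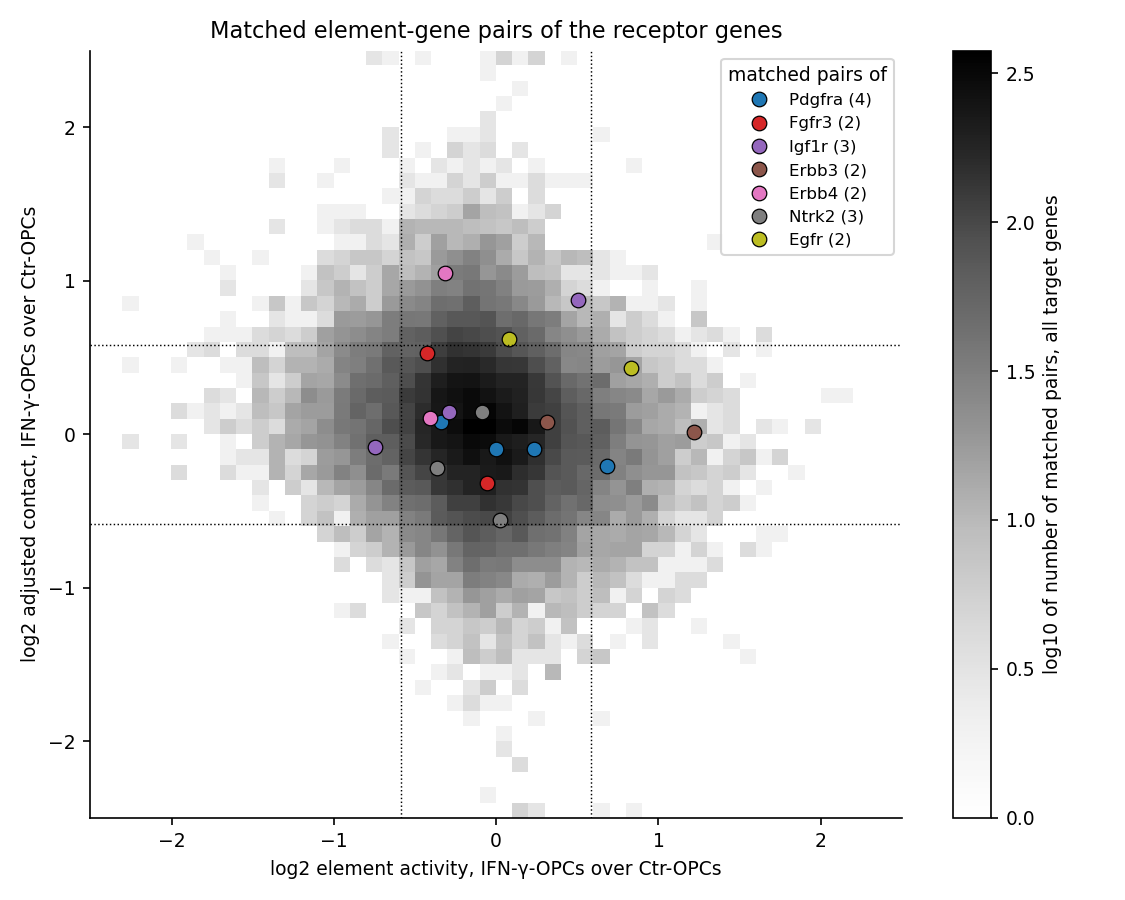
Log2 ratio of element activity (x axis) and of adjusted contact (y axis), IFN-γ-OPCs over Ctr-OPCs, for the 18 matched pairs of the receptor genes (coloured by gene, number in brackets) over all 29858 matched pairs (grey, log10 number per square). Dotted lines mark 1.5-fold and pairs beyond the axes are drawn at their edge; most receptor pairs lie in the dense centre and the Igf1r pair at 176 kb lies up and to the right.

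The gene totals of the 8 genes listed in both conditions had a median log2 ratio of -0.029, beside -0.066 over all 20321 genes, with a standard deviation over all genes of 0.19. Without Fgfr2, whose total was read at Ctbp2, the median of the other 7 was -0.081, so the receptor genes lay on either side of the median of all genes depending on that gene. None of the 8 passed 1.5-fold, beside 0.615% of all genes higher and 0.118% lower. In order of the level in Ctr-OPCs the genes were Fgfr3, Erbb3, Pdgfra, Fgfr2, Ntrk2, Igf1r, Fgfr1, Erbb4 and Egfr. In IFN-γ-OPCs the order was Erbb3, Fgfr3, Fgfr2, Pdgfra, Ntrk2, Igf1r, Egfr and Erbb4. No spread over libraries is available to say which neighbours in these orders differ.

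**Figure D3:**
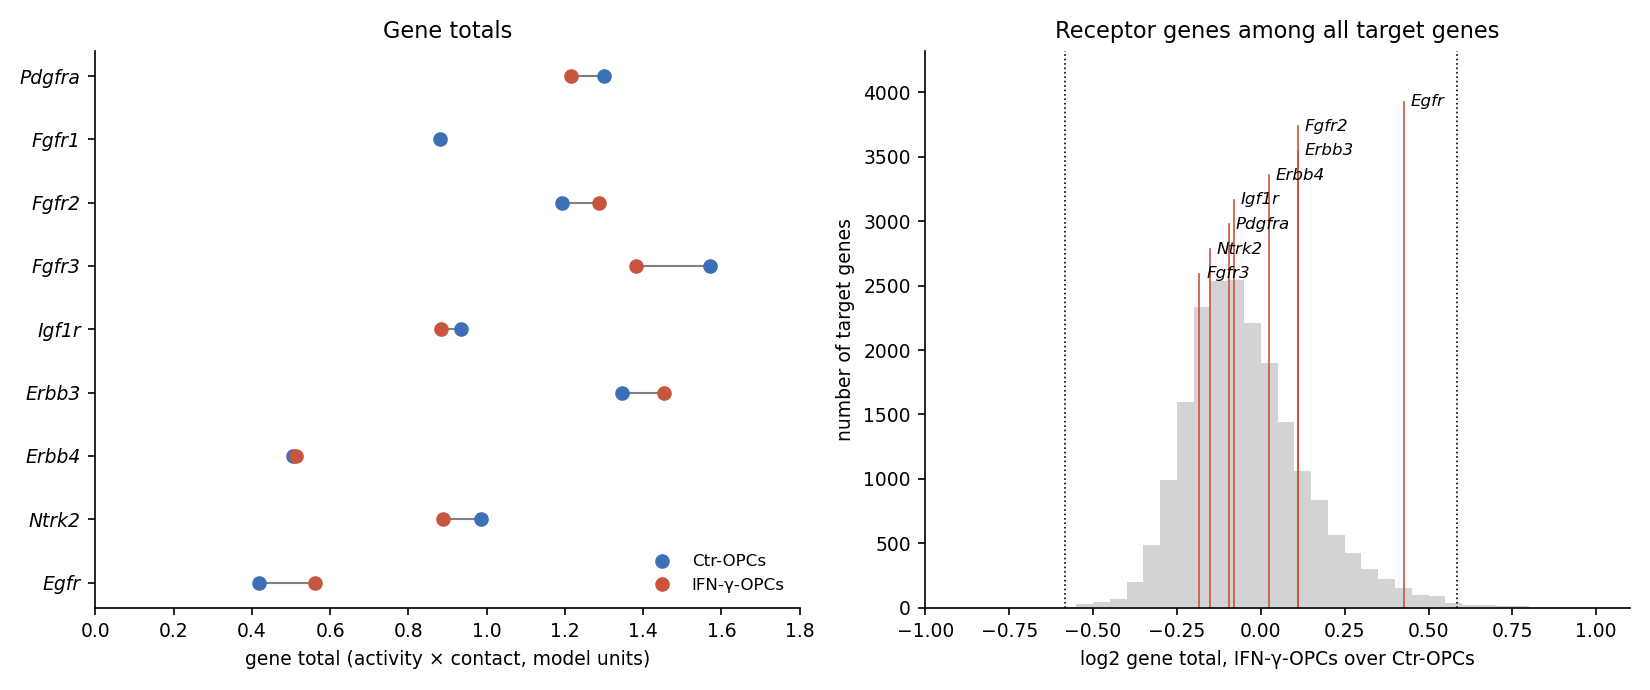
Left, gene total (summed activity times contact, model units) of each receptor gene in Ctr-OPCs and IFN-γ-OPCs. Right, histogram of the log2 ratio of the gene total over all target genes listed in both conditions, with the receptor genes as red lines whose height has no meaning and 1.5-fold as dotted lines; Egfr lies furthest to the right at 0.43.

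The distance of the receptor elements from the TSS was compared with that of all listed pairs. Of 30 pairs in Ctr-OPCs, 13 were under 5 kb from the TSS and 4 over 100 kb, and of 26 in IFN-γ-OPCs, 11 and 5. Under 5 kb these are 43.3% and 42.3% of the receptor pairs, beside 23.3% and 22.8% of all listed pairs, and over 100 kb 13.3% and 19.2%, beside 25.2% and 25.1%. The median distance was 8.62 and 10.8 kb, beside 15.1 and 15.8 kb over all listed pairs. The median distance of connections was 1.91 and 2.12 kb, beside 6.01 and 6.11 kb over all connections. Elements inside the receptor gene itself made up 15 pairs in both conditions, and 13 and 9 were intergenic.

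The other genes of the receptor pathways were followed as 5 lists of 111 genes, of which 100 were listed as targets. Their connections numbered 62 without and 64 with IFN-γ, and 20 genes gained, 17 lost and 63 kept their number, beside 14.9% of all target genes with more, 13.0% with fewer and 72.1% with as many. None of the 83 genes with a total in both conditions passed 1.5-fold, beside 0.615% of all genes higher and 0.118% lower, and their median log2 ratio was -0.09, beside -0.066 over all genes. Among 23 ligand genes, 5 had more connections and 3 fewer. Bdnf, which encodes the NTRK2 ligand, was absent from Ctr-OPCs and had 1 connection in IFN-γ-OPCs, whereas Fgf9, an FGF receptor ligand, went from 2 to 1. Pdgfc had the highest total ratio of the ligands, 0.19 on the log2 scale, and Igf2 the lowest, -0.31.

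Among 18 related receptors and co-receptors, 3 had more connections and 4 fewer. Csf1r, the colony stimulating factor receptor of microglia, went from 2 to 0, and Cspg4, the NG2 proteoglycan of OPCs, from 3 to 2. Insr, the insulin receptor, went from 1 to 2. The total of Kdr had the highest ratio, 0.23 on the log2 scale, and that of Igf2r the lowest, -0.25. Among 27 signal transducers, 6 had more and 2 fewer. The insulin receptor substrates changed their number of connections in opposite directions, with Irs2 going from 0 to 2 and Irs1 from 3 to 1. Their gene totals were 1.54 and 1.45 for Irs2 and 0.610 and 0.639 for Irs1. Akt1 went from 1 to 2 and Araf from 3 to 2. Frs2, the adaptor of FGF receptors, had the highest total ratio, 0.25, and Map2k2 the lowest, -0.30.

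Among 21 inhibitors, 4 had more and 5 fewer. The binding proteins of insulin-like growth factors differed, with Igfbp2 going from 0 to 1 and Igfbp3 from 2 to 0. Dusp4, a MAPK phosphatase, went from 1 to 0 and Ptprj from 0 to 1. Igfbp5 had the lowest total ratio of the inhibitors, -0.37 on the log2 scale. Among 11 transcriptional targets of the pathway, 2 had more and 3 fewer. Junb, an AP-1 subunit, went from 1 to 3 and Ccnd1, the cyclin D1 gene, from 1 to 2, although the total of Ccnd1 was 2.00 in Ctr-OPCs against 1.59 in IFN-γ-OPCs. The ETS factors Etv1 and Etv5 both went from 2 to 1 connection, although Etv1 had the highest total ratio of these targets, 0.504 in Ctr-OPCs against 0.593 in IFN-γ-OPCs, or 0.23 on the log2 scale.

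**Figure D4:**
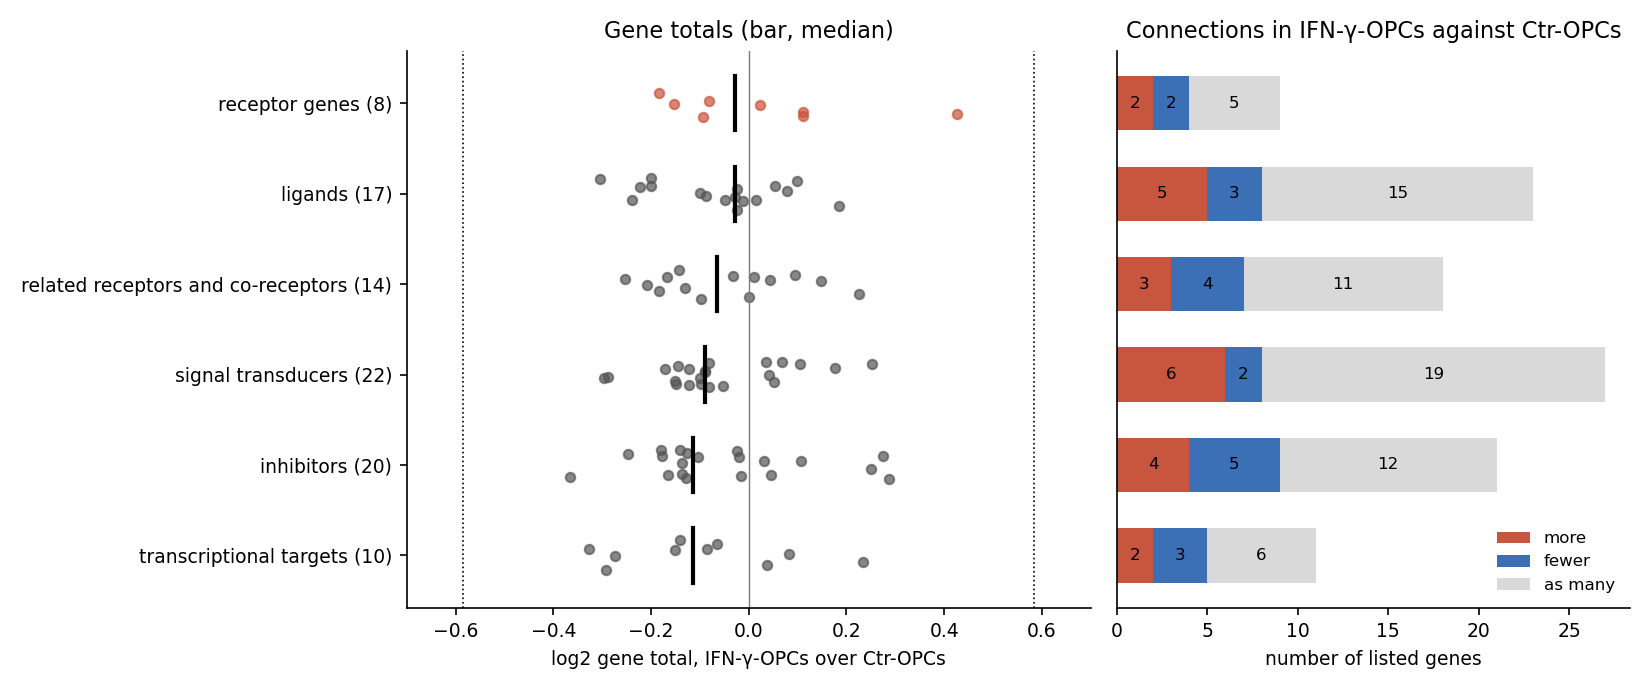
Left, log2 ratio of the gene total (IFN-γ-OPCs over Ctr-OPCs) for the receptor genes (red) and the genes of 5 pathway lists (grey), 1 point per gene with a total in both conditions, median as a bar and 1.5-fold dotted. Right, number of listed genes with more, fewer or as many connections in IFN-γ-OPCs; gains and losses occur in every list, and no gene passes 1.5-fold.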

How the data were processed

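The 6 mouse H3K27ac-HiChIP libraries were analysed as the deposited enhancer-gene table of each condition. The authors aligned the reads to mm10 with HiC-Pro and combined contacts at 5 kb with ATAC-seq and H3K27ac CUT&RUN in the ABC model, pooling the libraries. The deposited columns used were element activity (a signal), contact, power-law score and promoter quantile (scores), and the ABC score, a fraction that the authors computed per gene. Depth is not given.

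Targets were named through GENCODE, with 31937 of 32049 matched. Gene totals were activity times contact over the score, as the median over a gene's pairs. Elements were matched by mutual best overlap of at least 1 bp within a gene. Sequences came from RefSeq GRCm38.p6. Changes past 1.5-fold were counted, with no test. Named genes were the 9 receptors, from each pathway list up to 2 with the largest gain and 2 with the largest loss of connections and the highest and lowest total ratio, up to 3 genes per receptor with the most similar elements, and other targets connected to a receptor's connections. Members and lists were chosen with earlier results of these data known. Steps were tested on simulated data. Tools were pysam 0.24.0, pandas 2.3.3 and SciPy 1.17.1 under Python 3.11.15, with matplotlib 3.10.9 for plots. Alternatives covered cut-offs, scores, overlap rules, scaling and the pairs used. A gene and a motif that these rules cover are not reported here.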

Additional observations from a re-analysis of the deposited data

How the results depend on the processing

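No paired analysis was possible because each condition was deposited as 1 pooled table, and for the same reason no library could be left out. Without a cut-off the receptor genes had 30 and 26 pairs in Ctr-OPCs and IFN-γ-OPCs (4 genes with fewer), at a cut-off of 0.1 they had 3 and 2 connections (1 gene with more), and by the power-law score 16 and 14 (4 with fewer). When an equal number of top connections was taken per condition, the counts were 8 and 7 and 4 genes had fewer, Pdgfra and Ntrk2 among them, and with overlapping elements merged into regions 1 had fewer. At a cut-off of 0.1 Igf1r changed by -1 and Erbb3 by 1, the opposite of their changes at 0.05. The share of Ctr-OPC connections kept was 33.3% at 0.1. Reciprocal overlap of 50% brought it to 37.5% and left 33.3% of IFN-γ-OPC connections shared. Without a cut-off the median distance in Ctr-OPCs was 8.62 kb. The median log2 ratio of the gene totals became 0.026 after dividing each table by its median, and that of activity became 0.054 after the same step, 0.026 over connections alone and 0.013 over regions. Pathway genes with more and fewer connections were 33 and 39 without a cut-off and 5 and 3 at 0.1. The cause of these differences was not tested beyond the setting itself. Of 56 comparisons of the main values with an alternative, 33 stayed within the limits set, and 28 of 45 for single genes were unchanged. The limits were 1.5-fold for counts, the Wilson confidence interval of the main value for shares, and 1 standard deviation for medians. Median log2 ratios also had to keep their sign. These limits are wide. A median distance in IFN-γ-OPCs of 2.12 against 10.8 kb, and a kept share of Ctr-OPC connections of 75% against 50%, both counted as within them. Depth and replicate spread are unknown, so small differences, such as the Pdgfra scores at the cut-off, cannot be told from noise.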
